A study of Homo sapiens with 4 samples.

Results

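The MYC and MAX network is a group of genes for transcription factors that pair through a shared helix-loop-helix and leucine zipper region, and 9 of its genes were taken by symbol from the 57820 rows of the deposited table: MYC, MYCN, MAX, MXD1, MXD3, MXD4, MXI1, MNT and MGA. Each symbol had 1 row. RNA was measured in U87, an established human glioma cell line, carrying either a short hairpin RNA labelled shGlud1, against the glutamate dehydrogenase gene GLUD1, or a control hairpin labelled shNT, with 2 libraries in each group. All 4 libraries came from cells grown with bovine calf serum and then kept for 6 h in low glucose, so what low glucose itself does cannot be read from them. The labels name 1 hairpin per group and leave unsaid whether libraries within a group stem from different cultures, so each p-value reflects library-to-library spread alone, which may be technical.

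MAX is the common partner of the network. MYC and MYCN pair with MAX and switch genes on, largely genes for growth, ribosome assembly and nucleotide synthesis. The MXD proteins, MXI1 and MNT compete for MAX, bind the same DNA element (the E-box CACGTG) and recruit the SIN3 corepressor to switch genes off. MGA, a very large protein that also carries a T-box, pairs with MAX in a repressive Polycomb complex. A parallel arm, MLX with its glucose-sensing partners MLXIP (MondoA) and MLXIPL (ChREBP), shares MXD1, MXD4 and MNT with MAX.

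In the shGlud1 libraries MYC, MAX, MXD1 and MXD4 were lower, and MXD3, MXI1, MNT and MGA were higher. The falls were about 2-fold for MYC (1.91-fold), MXD1 (2.1-fold) and MXD4 (2.07-fold) and 1.37-fold for MAX. The rises were 1.59-fold for MXI1, 1.9-fold for MXD3, 2.38-fold for MGA and 2.9-fold for MNT. Of the 9 genes, 8 passed the filter on low counts, and all 8 of these were called changed (4 up, 4 down) at an adjusted p under 0.05 in edgeR's quasi-likelihood test. The background was high: 61% of the 14616 genes tested were called (31.9% higher, 29.1% lower), so that a call alone sets no gene of the network apart. In all 8 the levels of the groups did not overlap, as was the case for 81% of genes tested. The median size of a change, sign aside, was 0.65 on the log2 scale over all genes tested. Of the 8, only MAX (-0.45) lay below that size.

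The library totals were 16546849 and 18118503 expected counts for shNT and 17407149 and 18537314 for shGlud1. Spearman correlations across genes were 0.99 and 0.992 within the groups and 0.928 to 0.943 between them. GLUD1 fell by 0.98 on the log2 scale (SE 0.13, edgeR adjusted p = 1.26e-12). The size of this fall depended on the scaling: with library totals alone the log2 fold change was -0.45 (edgeR adjusted p = 0.003). Over other choices of scaling, filter and test with all 4 libraries, GLUD1 ran from -1.21 to -0.44. Its near-identical copy GLUD2 had at most 7.9 expected counts in a library. Scaling mattered in these libraries: the median log2 fold change of all genes tested was 0.06 with TMM factors, which balance the bulk of genes, and 0.57 with library totals alone, and the share of calls that were higher was 52.3% and 79.1%. Fold changes also followed transcript length across genes, which are not independent replicates (Spearman correlation 0.447). The mesenchymal and glioma-line markers VIM and CD44 were abundant, while the glial markers SOX2 and AQP4 were at 0 in all libraries and GFAP had at most 6 counts. Of 12 such markers 7 could be tested, with 3 higher and 1 lower (42.9% and 14.3%, against 31.9% and 29.1% of all genes tested). The list summed to 3164 to 3334 CPM in shNT and 6410 to 7124 CPM in shGlud1. Most of this rise lay in VIM (mean 2352 CPM in shNT and 4676 in shGlud1) and EGFR (152 and 1282 CPM). CD44 did not pass the test (725 and 769 CPM). The summed levels of the markers of other cell types ran from 0.55 to 0.659 CPM (endothelial, none of 3 tested), 19.3 to 38.5 CPM (epithelial, mostly KRT8, 2 of 5 tested and both lower), 283 to 407 CPM (immune, mostly CD68, with PTPRC at 1 count or fewer, 1 of 2 tested lower) and 229 to 307 CPM (neuron, mostly TUBB3, with STMN2 at 0, 1 of 4 tested higher and 1 lower). Of the few markers tested 100% (epithelial), 50% (immune) and 50% (neuron) were called, against 61% of all genes tested. The epithelial, immune and neuron sums were lower in the shGlud1 libraries, and the part of such shifts in the results below was not tested.

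The E-box is a shared binding element of these dimers, so the regions around the starts of the network genes were read for its letters. RefSeq promoter windows (GRCh38.p14, 250 bases before to 50 bases after a start) were found for 8 of the 9 genes, 13 windows in all. The canonical E-box CACGTG, which reads the same on both strands, was in 2 of them, against 7.26% of all 35116 windows. The variant CACGCG, searched on both strands, was in 3, against 11.4% of all windows, and no window of the network genes held both motifs. The 5 windows with a match are printed because they cover genes that moved in opposite directions: MNT (chr17:2401011-2401310, minus strand, first base of the motif at -193) and MXD4 (chr4:2262060-2262359, minus strand, -238) hold CACGTG, while MXD3 (chr5:177312703-177313002, minus strand, position 9 counted from 1 at the start), 1 of 3 starts of MXI1 (chr10:110225746-110226045, plus strand, 9) and 1 of 3 starts of MGA (chr15:41660155-41660454, plus strand, -21) hold the variant. Capitals mark the motif, shown as its reverse complement where the match is on the other strand (MXD3 and MGA). Each sequence runs 5′ to 3′ in the direction of the gene, and a match of letters is no evidence of binding.
MNT: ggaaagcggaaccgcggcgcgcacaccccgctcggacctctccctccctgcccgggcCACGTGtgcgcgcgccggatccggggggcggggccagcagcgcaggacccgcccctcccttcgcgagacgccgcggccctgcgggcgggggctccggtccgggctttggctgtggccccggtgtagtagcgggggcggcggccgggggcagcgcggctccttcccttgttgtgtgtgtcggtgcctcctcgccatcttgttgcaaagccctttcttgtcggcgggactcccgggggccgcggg
MXD4: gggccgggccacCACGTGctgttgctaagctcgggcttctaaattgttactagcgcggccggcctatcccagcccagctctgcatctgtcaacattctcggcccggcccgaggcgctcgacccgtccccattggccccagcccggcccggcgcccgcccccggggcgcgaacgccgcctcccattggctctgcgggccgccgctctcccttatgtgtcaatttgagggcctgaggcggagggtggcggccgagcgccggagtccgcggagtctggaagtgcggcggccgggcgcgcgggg
MXD3: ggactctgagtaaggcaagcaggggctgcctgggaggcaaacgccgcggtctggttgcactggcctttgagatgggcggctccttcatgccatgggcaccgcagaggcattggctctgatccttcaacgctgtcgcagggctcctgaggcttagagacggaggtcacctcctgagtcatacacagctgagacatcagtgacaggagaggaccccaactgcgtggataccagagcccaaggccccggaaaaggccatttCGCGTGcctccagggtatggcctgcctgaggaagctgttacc
MXI1: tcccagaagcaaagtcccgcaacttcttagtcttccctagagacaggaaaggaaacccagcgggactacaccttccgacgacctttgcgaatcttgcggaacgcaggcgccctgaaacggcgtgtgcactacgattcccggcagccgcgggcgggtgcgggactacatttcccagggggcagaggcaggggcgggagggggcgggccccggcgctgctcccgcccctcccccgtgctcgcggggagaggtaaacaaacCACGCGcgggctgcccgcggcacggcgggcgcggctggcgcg
MGA: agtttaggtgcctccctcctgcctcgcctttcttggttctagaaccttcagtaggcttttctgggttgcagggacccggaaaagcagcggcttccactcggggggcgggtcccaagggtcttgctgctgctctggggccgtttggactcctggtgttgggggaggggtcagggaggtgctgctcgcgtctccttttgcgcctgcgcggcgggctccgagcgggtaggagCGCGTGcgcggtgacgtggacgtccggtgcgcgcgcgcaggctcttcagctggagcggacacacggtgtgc
The 2 genes with the canonical E-box moved apart, MNT upward and MXD4 downward. The 3 genes with the variant all rose, where 4 of the 8 tested genes rose in all. MXI1 and MGA, with 3 windows each, had more room for a match than genes with fewer windows. Their rises were 0.30 and 0.34, neither called, with the trends on transcript length and GC removed. The windows of MAX, MXD1 and MYCN held neither motif. MYC was the gene for which no window was found.

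MYC encodes the activating partner that gives the network its name (ENSG00000136997, chromosome 8, 127735434 to 127741434 in GENCODE 29 on GRCh38, as for the genes below; all are annotated protein-coding genes). It had 445 and 456 expected counts in shNT and 300 and 404 in shGlud1. In CPM, which here divides counts by TMM-adjusted library size, it was at 32.6 and 29.8 in shNT and at 15 and 17.5 in shGlud1. Both shGlud1 libraries lay below both shNT libraries, and the mean fell from 31.2 ± 1.98 to 16.3 ± 1.8 CPM (SD, n = 2 each). This was a log2 fold change of -0.94 (SE 0.15, edgeR adjusted p = 6.03e-09). MYC fell under each of 15 alternatives of scaling, filter, test or libraries, by between 0.41, with library totals alone, and 1.05, with adjusted p from 9.09e-11 to 0.0307. In bulk RNA, fewer cells that express a gene and less of its RNA per cell cannot be told apart.

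The paralogs of MYC added little RNA. MYCN, the paralog known from neuroblastoma, had 0 counts in every library, which allows a level of up to 0.22 and 0.196 CPM in shNT and 0.15 and 0.13 CPM in shGlud1 (3 counts, counting error only). Its antisense partner MYCNOS was also at 0. MYCL, the third paralog and not a member of the set, had 7 and 11 counts in shNT and 11 and 8 in shGlud1 and did not pass the test (-0.47, SE 0.65). Of these 3 genes only MYC had more than 11 counts in any library.

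MAX (ENSG00000125952, chromosome 14, 65006174 to 65102695), the shared partner, was the least changed of the 8 genes. Its counts were nearly level across the libraries, at 566 and 563 in shNT and 577 and 651 in shGlud1. With TMM factors this became 41.5 and 36.8 CPM in shNT and 28.8 and 28.3 CPM in shGlud1, a log2 fold change of -0.45 (SE 0.14, edgeR adjusted p = 0.00266). The direction rested on the scaling: with library totals alone the value was 0.07 (edgeR adjusted p = 0.718). Without shNT replicate 1 it was -0.37 and no longer called (edgeR adjusted p = 0.114, in a range of 0.000262 to 0.718 over the 15 alternatives). MAX shares 184 exon bases with an antisense gene, which had 0 counts in every library.

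**Figure D1:**
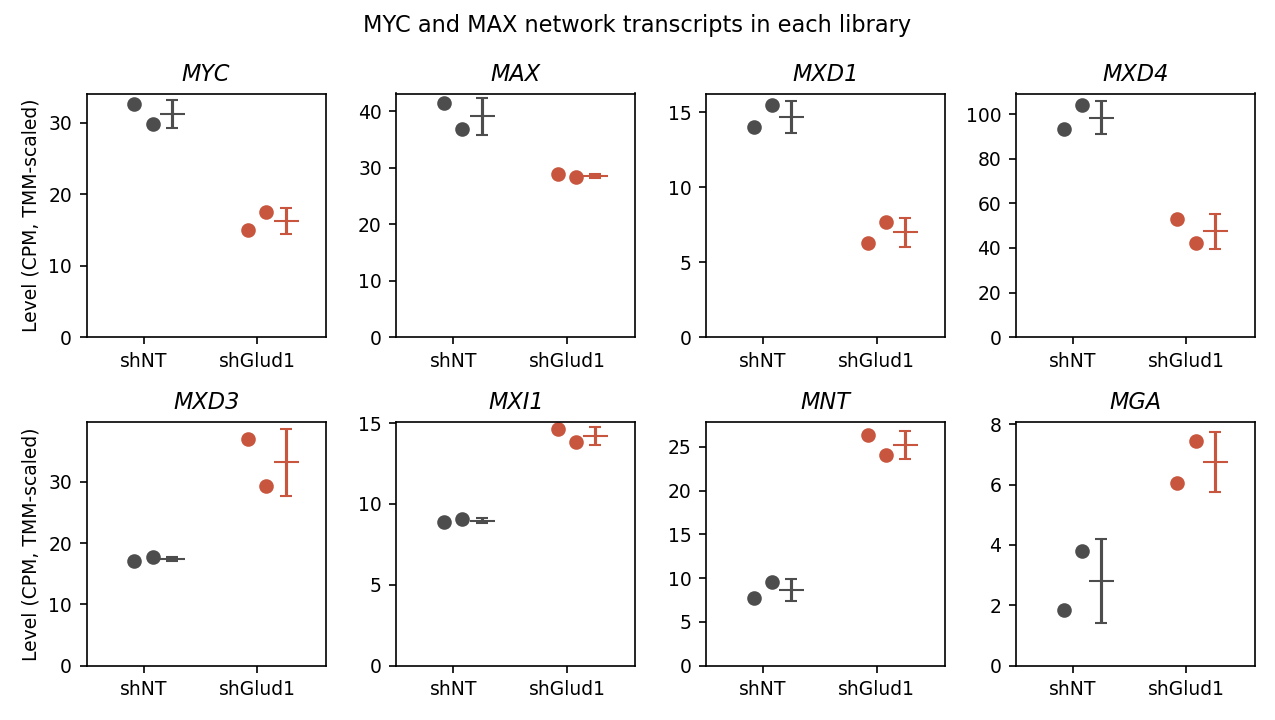
Level of each of the 8 tested network genes (y axis, CPM scaled with TMM factors, from 0) in the shNT (grey) and shGlud1 (red) libraries. Points are libraries and bars the mean ± SD of 2 libraries. MYC, MAX, MXD1 and MXD4 lie lower in both shGlud1 libraries and MXD3, MXI1, MNT and MGA higher, with no overlap.

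The MXD genes, whose proteins are small repressors with closely related domains, split into a pair that fell and a pair that rose. MXD4 (ENSG00000123933, chromosome 4, 2247432 to 2262294), known for its expression in resting and differentiating cells, was the most abundant of the network by counts, with 1271 and 1587 in shNT and 1063 and 967 in shGlud1. It fell from 93.1 and 104 CPM to 53.1 and 42 CPM, a log2 fold change of -1.05 (SE 0.13, edgeR adjusted p = 1.19e-14). MXD1 (ENSG00000059728, chromosome 2, 69897688 to 69942945), the founding MXD gene and likewise linked to differentiation, was at 14 and 15.5 CPM in shNT and at 6.3 and 7.68 CPM in shGlud1. Its log2 fold change was -1.07 (SE 0.2, edgeR adjusted p = 2.81e-07), close to that of MXD4. MXD1 shares 237 exon bases with SNRNP27 on the same strand, which fell less (-0.41, SE 0.14). Library totals alone gave -0.54 for MXD4 and -0.55 for MXD1, and removal of the length and GC trends gave -1.14 and -1.74.

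MXD3 (ENSG00000213347, chromosome 5, 177301461 to 177312757) differs from its paralogs in being expressed in the S phase of dividing cells. It rose from 17.1 and 17.7 CPM in shNT to 37 and 29.3 CPM in shGlud1, a log2 fold change of 0.93 (SE 0.15, edgeR adjusted p = 6.14e-09). Over the alternatives the rise ran from 0.73 to 1.44 and was called in each. The counts of MXD3 are uncertain because 1158 of its 5154 annotated exon bases lie in antisense exons of PRELID1, and the library kit named does not mark strand. PRELID1 had 16334 and 18249 expected counts in shNT and 10820 and 10023 in shGlud1, against 234.46 and 271.28 and then 741.46 and 675.17 for MXD3. PRELID1 fell (-1.29, SE 0.16), as did RAB24 (-1.13, SE 0.14), which shares 926 exon bases with MXD3 on the same strand. Both of these neighbours fell while MXD3 rose, and the part of shared reads in the counts of MXD3 was not tested.

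MXI1 (ENSG00000119950, chromosome 10, 110207605 to 110287365), also called MXD2, was at 8.86 and 9.08 CPM in shNT and at 14.6 and 13.8 CPM in shGlud1. The log2 fold change was 0.67 (SE 0.19, edgeR adjusted p = 0.00138), the smallest of the 4 rises. With both the length and GC trends removed it was 0.30 and not called (edgeR adjusted p = 0.106, the highest of the 15 alternatives, which began at 1.72e-06). With library totals alone it was 1.18.

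MNT and MGA, the large partners of MAX, both rose, MGA less firmly. MNT (ENSG00000070444, chromosome 17, 2384060 to 2401118) encodes a widely expressed repressor that opposes MYC at shared targets. Its estimated counts were 106 and 146.02 in shNT and 526.65 and 553 in shGlud1, and its level rose from 7.76 and 9.54 CPM to 26.3 and 24 CPM. The log2 fold change was 1.54 (SE 0.18, edgeR adjusted p = 8.28e-17), and between 1.19 and 2.05 over the alternatives, all of them called. MNT shares 1065 exon bases with an antisense gene, which had at most 11.35 counts in a library.

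MGA (ENSG00000174197, chromosome 15, 41621224 to 41773081) was the scarcest, with 25 and 58 counts in shNT and 121 and 172 in shGlud1. It was at 1.83 and 3.79 CPM in shNT and at 6.05 and 7.46 CPM in shGlud1, so the shNT libraries differed about as much from each other as the higher of them did from the lower shGlud1 library. The log2 fold change was 1.25 (SE 0.27, edgeR adjusted p = 8.36e-06). It was 0.83 without shNT replicate 1 and 1.88 without shNT replicate 2. MGA also has the longest transcript of the set, 14439 bases, and with the length trend removed its change was 0.54 (edgeR adjusted p = 0.0542) and with the length and GC trends removed 0.34 (edgeR adjusted p = 0.266), in a range from 2.97e-07 to 0.266. The trend on median instead of longest transcript length left 0.72, which was called.

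**Figure D2:**
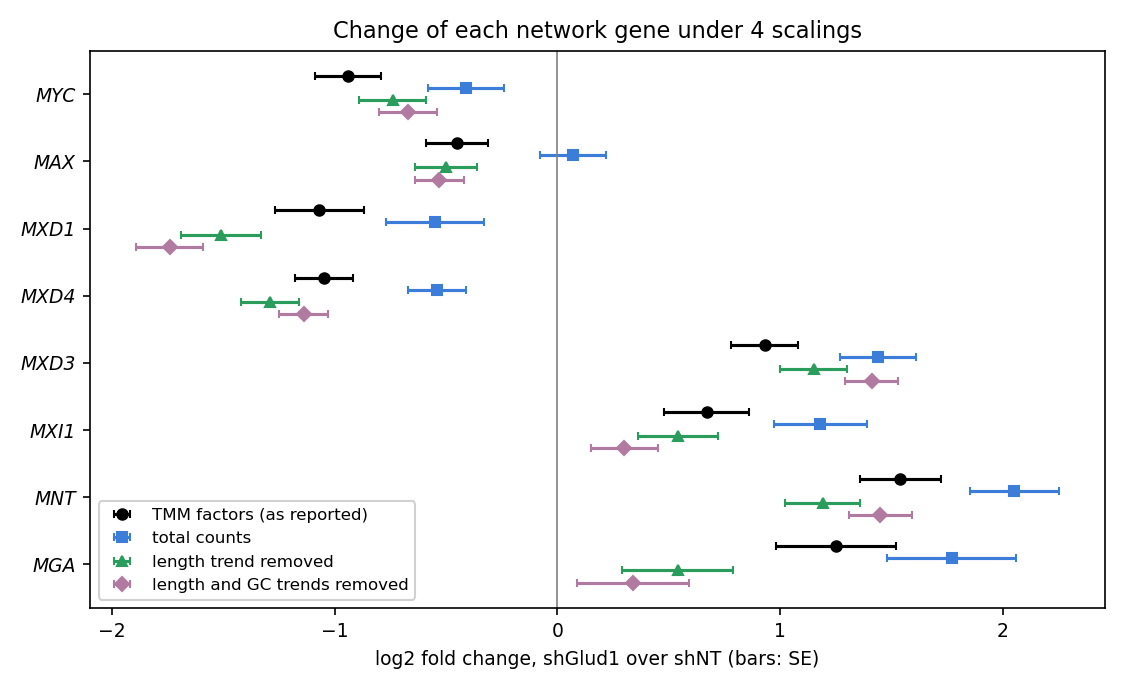
Log2 fold change, shGlud1 over shNT (x axis, bars are SE), of the 8 network genes under 4 scalings: TMM factors, library totals alone, and removal of the trend on transcript length or on length and GC share. The sign changes with scaling for MAX alone, which goes from -0.45 to 0.07 with library totals, and MGA shrinks from 1.25 to 0.34 with the length and GC trends removed.

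Levels of different genes can be compared only per transcript length. Per kilobase of longest annotated transcript (RPKM), the order in shNT was MXD4 (23.3 ± 1.77), MYC (13.2 ± 0.836), MAX (12.4 ± 1.05), MXD3 (7.65 ± 0.177), MXD1 (2.64 ± 0.189), MXI1 (2.59 ± 0.0449), MNT (1.73 ± 0.251) and MGA (0.195 ± 0.0959). The neighbours MYC and MAX, and MXD1 and MXI1, did not differ beyond their spread. In shGlud1 the order was MXD3 (14.6 ± 2.4), MXD4 (11.2 ± 1.87), MAX (9.05 ± 0.131), MYC (6.87 ± 0.759), MNT (5.04 ± 0.331), MXI1 (4.1 ± 0.163), MXD1 (1.25 ± 0.175) and MGA (0.468 ± 0.0694). There the SDs of MXD3 and MXD4 overlapped, and the counts of MXD3 are uncertain for the shared exons named above. Such an order depends on which transcript is taken: by median transcript length MXD4 led in both groups (158 and 76.2 RPKM), and MNT (43.4) stood second in shGlud1.

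Shares were taken of the summed levels per longest transcript length of the 7 detected MAX partners in the set, which leaves out MYCL. The activator MYC took 27.5% and 24% in shNT and 13.7% and 18.1% in shGlud1. MXD4 went from 44% and 46.8% to 27.2% and 24.3%. MXD3 went from 15% and 14.8% to 35.2% and 31.4%. Its counts are uncertain for the shared exons named above, and its share enters those of all other partners. MNT went from 3.1% and 3.64% to 11.4% and 11.8%, and MXI1 from 5.1% and 4.99% to 9.14% and 9.76%. For each of these genes the shares of the groups did not overlap. By median transcript length MYC held 9.8% ± 1.24 in shNT and 6.7% ± 1.37 in shGlud1 and MNT 6.35% ± 0.525 and 24.2% ± 0.726, so the sizes depend on the transcript model while the directions did not.

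**Figure D3:**
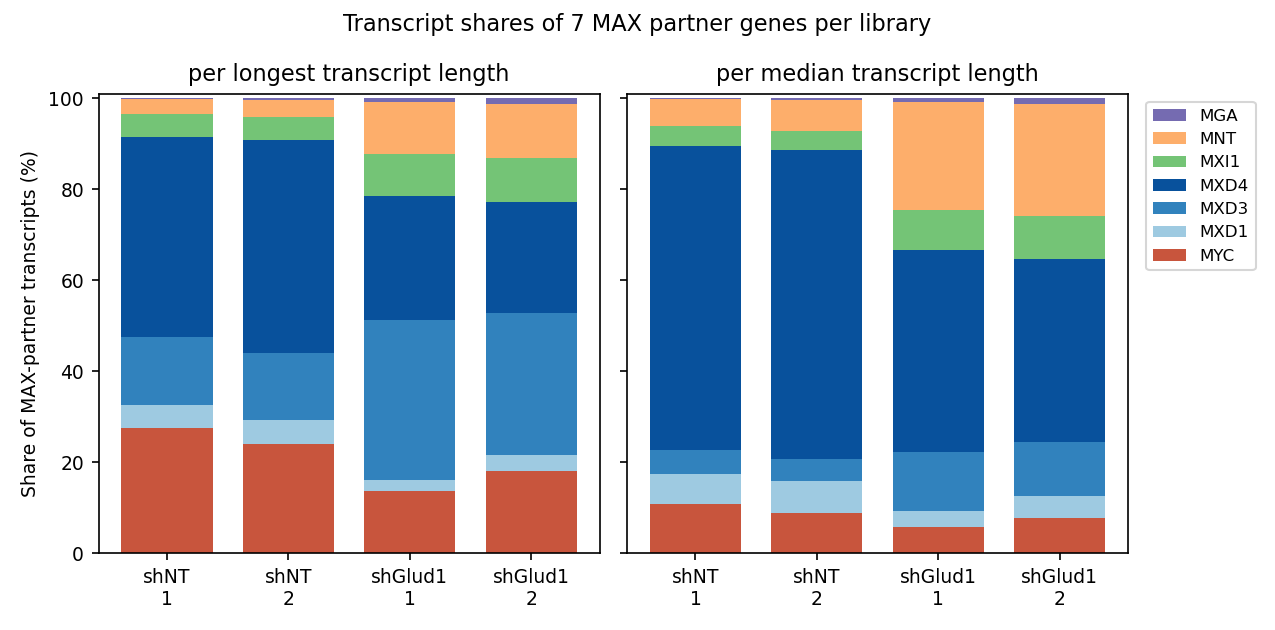
Share (y axis, percent) of each of 7 MAX partner genes in their summed level per transcript length, by library, with longest (left) and median (right) transcript length. MXD4 shrinks in both shGlud1 libraries and MNT and MXD3 grow, with MYC at 25.8% ± 2.48 in shNT and 15.9% ± 3.12 in shGlud1 on the left. The counts of MXD3 are uncertain because it shares exons with PRELID1 and RAB24.

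Ratios of 2 genes within a library do not depend on the library's scaling, although they can still follow transcript length. The ratios given here use longest transcript length. The log2 ratio of MYC to MAX was 0.07 and 0.11 in shNT and -0.53 and -0.27 in shGlud1. The difference was -0.49, so MYC fell relative to its own partner. MNT relative to MYC went from -3.15 and -2.72 to -0.27 and -0.63, a 5.61-fold shift. MXI1 relative to MYC went from -2.43 and -2.27 to -0.59 and -0.89, a 3.05-fold shift. MGA relative to MYC went from -6.76 and -5.58 to -3.92 and -3.84. By contrast MXD4 relative to MYC was at 0.68 and 0.96 in shNT and at 0.99 and 0.42 in shGlud1, with overlapping groups and a mean difference of -0.11. In an exact two-sided permutation test over 4 libraries the smallest possible p is 0.33, which was reached by all of these ratios but that of MXD4 to MYC (p = 1). MXD4 stood above MYC in all 4 libraries, and MNT, MXI1 and MGA stood higher relative to MYC in both shGlud1 libraries than in either shNT library. Median transcript length left the differences between groups as they were but moved the ratios themselves. With it MYC to MAX was -1.25 and -1.21 in shNT. In shGlud1 MNT to MYC was then 2.05 and 1.69, and MXI1 to MYC 0.59 and 0.29. Which gene of such a pair stood higher thus depended on the transcript model.

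**Figure D4:**
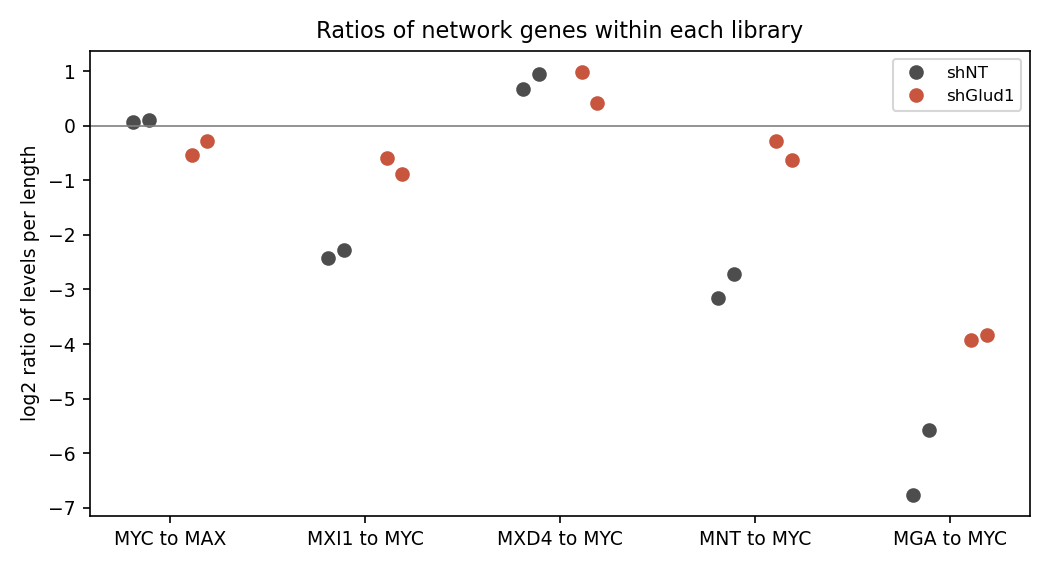
Log2 ratio of levels per longest transcript length of pairs of network genes (y axis) in each shNT (grey) and shGlud1 (red) library. The shGlud1 points lie below the shNT points for MYC to MAX, above them for MXI1, MNT and MGA to MYC, and on either side of them for MXD4 to MYC.

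By root mean square difference of centred log2 levels over the 4 libraries, the genes closest to MYC among 9835 with a mean of at least 5 CPM were ATP5S (0.0228), C6orf141 (0.0256) and CCDC112 (0.0289). Closest to MAX were ATP5B (0.0102), RAB4A (0.0129) and PPP4C (0.0139). With only 2 groups of libraries, likeness of this kind says little more than that these genes differed between the groups by a similar amount.

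In the MLX arm 1 of 3 genes fell and 1 rose (33.3% each), close to the 29.1% lower and 31.9% higher of all genes tested. MLX, the partner of the glucose-sensing factors, fell from 63.9 ± 5.54 to 45 ± 5.93 CPM (-0.51, SE 0.13), a change that was 0.01 with library totals alone and no longer called without shNT replicate 1. MLXIPL rose (1.33, SE 0.46) from a very low level, 11 and 13 counts in shNT and 45 in each shGlud1 library. It was not called in DESeq2 (1.29), without shGlud1 replicate 1 (1.21) or with the median transcript length trend removed (0.86). MLXIP, which encodes MondoA, did not pass the test (0.28, SE 0.14). The median of the 3 genes was 0.28, against 0.06 over all genes tested, and it was -0.35 with the length trend removed. As MLXIPL stayed at 0.86 or above in every alternative, MLXIP was then at -0.35 or lower, so its sign depended on the length trend. Over the alternatives that kept all libraries, 1 to 3 of these genes were called, against 36.2% to 65.6% of all genes tested.

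**Figure D5:**
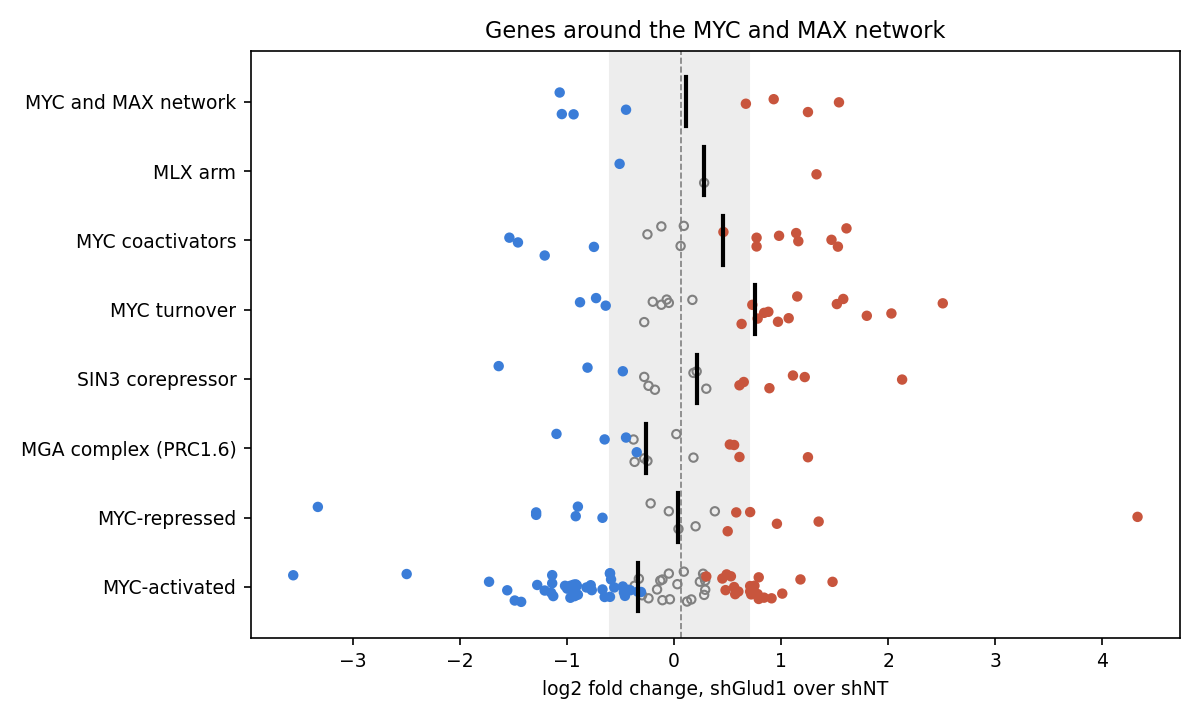
Log2 fold change, shGlud1 over shNT (x axis), of the tested genes of each list (rows). Filled points were called (red higher, blue lower), open points were not, black bars are list medians, and the dashed line and grey band are the median and the middle range (-0.60 to 0.70) of all genes tested. The MYC turnover list lies to the right (median 0.76) and the MYC-activated list to the left (-0.33).

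Genes for cofactors of MYC moved in both directions. Of 17 coactivator genes 9 rose and 4 fell (52.9% and 23.5%, against 31.9% and 29.1% of all genes tested), with a median of 0.46. The acetyltransferase gene EP300 rose from 5.19 ± 0.607 to 15.9 ± 0.534 CPM (1.61, SE 0.21), and HCFC1, which encodes a chromatin-bound host cell factor, rose by 1.16 (SE 0.14). With the length trend removed they were 0.96 and 0.52, both still called. The acetyltransferase genes KAT5 (from 131 ± 9.69 to 45 ± 4.42 CPM, -1.54, SE 0.13) and KAT2A (-1.46, SE 0.14) fell. The median was 0.20 with the length trend removed and 0.98 with library totals alone.

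MYC protein is short-lived, and the genes that control its turnover included more that rose than fell. Of 22 such genes 13 rose and 3 fell (59.1% and 13.6%, against 31.9% and 29.1% of all genes tested), with a median of 0.76 against 0.06. The ubiquitin ligase gene HUWE1 rose from 38.1 ± 0.628 to 155 ± 4.52 CPM (2.03, SE 0.14), and the mitotic kinase gene AURKA, whose product also stabilises MYCN, from 26.5 ± 1.72 to 92.4 ± 5.22 CPM (1.8, SE 0.14). With the length and GC trends removed HUWE1 was 1.27, still called. The ubiquitin ligase gene STUB1 fell from 237 ± 3.49 to 143 ± 17.4 CPM (-0.73, SE 0.13). The list holds both ligases and stabilisers, so its count gives no single direction for the protein. The median was 0.26 with the length trend removed and 0.03 with the length and GC trends removed, where STUB1 was at -0.05 and not called, and STUB1 was also uncalled with library totals alone (-0.22).

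On the side of the repressors, 6 of 15 SIN3 corepressor genes rose and 3 fell (40% and 20%, median 0.21), and the 60% called was about the 61% of all genes tested. SIN3A, the scaffold that MXD and MNT proteins bind, rose from 6.18 ± 0.967 to 27.2 ± 1.07 CPM (2.13, SE 0.18), and the histone-binding RBBP4 by 1.11 (SE 0.14). With the length and GC trends removed these were 1.39 and 0.29, both still called. SIN3B, the other scaffold, did not pass the test (-0.18, SE 0.14). BRMS1 (-1.64, SE 0.15) and SAP18 (-0.81, SE 0.13), smaller subunits, fell, and with library totals alone SAP18 was -0.30, still called. Of 14 genes of the Polycomb complex that holds MGA and MAX, 4 rose and 4 fell (28.6% each, median -0.27), close to the 31.9% and 29.1% of all genes tested. Besides MGA the histone deacetylase gene HDAC2 rose (0.61, SE 0.13), which became -0.05 and uncalled with the length trend removed. RING1, a Polycomb ubiquitin ligase gene, fell from 135 ± 2.88 to 63.3 ± 6.47 CPM (-1.1, SE 0.13), beside MAX, and was -0.43 and still called with the length and GC trends removed. The list median was 0.25 with library totals alone.

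Among genes known as activated by MYC more fell than rose. All 80 passed the filter, 40 fell (50%, against 29.1% of all genes tested) and 20 rose (25%, against 31.9%), with a median of -0.33. This median was -0.22 with the length trend removed and 0.19 with library totals alone, where the median of all genes was 0.57. SLC3A2, an amino acid transporter subunit gene that is also a known ATF4 target, fell from 1829 ± 38.9 to 155 ± 5.57 CPM (-3.56, SE 0.17), and HSPE1, a mitochondrial chaperonin gene that heat shock also induces, from 760 ± 64.2 to 134 ± 9.91 CPM (-2.5, SE 0.15). PAICS, a purine synthesis gene, rose from 46.7 ± 4.39 to 130 ± 14.3 CPM (1.48, SE 0.13, and 0.73, still called, with the length and GC trends removed), and LDHA, the lactate dehydrogenase gene, rose by 1.18 (SE 0.16).

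Split by role after the values were seen, the activated genes held rises and falls in every role, and the roles were not tested against each other or against the 31.9% higher and 29.1% lower of all genes tested. Of 32 genes of the nucleolus and ribosome assembly 17 fell and 9 rose (median -0.32), with RRP9 (-1.73, SE 0.14) and NOLC1 (0.79, SE 0.13) as the members of lowest p in each direction. Of 13 genes of nucleotide, folate and polyamine synthesis 7 fell, led by DCTPP1 (-1.02), and 4 rose (median -0.48). Of 10 mitochondrial genes 6 fell and 1, PPRC1 (1.01), rose (median -0.76). In translation 4 of 6 fell, led by the phenylalanyl-tRNA synthetase gene FARSA (-1.21), and the cap-binding factor gene EIF4E rose (0.71). Of 9 genes of the cell cycle, chromatin and nuclear transport 4 fell, led by the arginine methyltransferase gene PRMT5 (-0.94), and 2 rose, led by the replicative helicase gene MCM4 (0.79). Of 10 genes of glycolysis, lipids and membrane transport 2 fell and 3 rose (median 0.06).

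In a list of genes known as repressed by MYC, several of them through MIZ1, rises and falls were equal in number. The list also counts ZBTB17, which encodes MIZ1 itself, among the falls. Of the 22 genes listed 17 were tested, 6 rose and 6 fell (35.3% each, median 0.04), not far from the 31.9% and 29.1% of all genes tested. TXNIP, also a target of MLX dimers, rose from 2.59 ± 0.866 to 52.8 ± 5.61 CPM (4.33, SE 0.19), and the cyclin D1 gene CCND1 by 1.35 (SE 0.14). GADD45B, a stress gene, fell from 266 ± 12.5 to 26.4 ± 0.366 CPM (-3.33, SE 0.15), and the thrombospondin gene THBS1 by 1.29 (SE 0.14). With the length and GC trends removed THBS1 was -2.12. The cell cycle inhibitor CDKN1A, the best known gene of this class, did not pass the test (0.04, SE 0.14), CDKN1B rose (0.96, SE 0.23), and CDKN2B and CDKN2C had 0 counts in every library; these inhibitors were singled out after their values were seen. ZBTB17, the cofactor gene counted among the 6 falls, was at -0.9 (SE 0.13). Without it the falls were fewer than the rises.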

How the data were processed

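Poly-A RNA of U87 cells was made into 4 TruSeq V2 libraries and sequenced in pairs, per the labels' protocols, a kit that does not mark strand. The deposited table holds expected counts (estimated reads per gene by the authors, 20.1% of values above 0 not whole, every row naming a gene). Bowtie 0.12.2 and mm8, a mouse build, are named per the submitters' processing notes. All 57820 rows carry human gene IDs, so the build is uncertain, and the counting program is not given in the sources used here. Reads without molecular identifiers include PCR copies.

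Counts were rounded and tested in edgeR 4.0.16 (R 4.3.3): filterByExpr (minimum count 10), TMM factors (0.826, 0.845, 1.15 and 1.24), robust quasi-likelihood test, Benjamini-Hochberg over 14616 genes, called under 0.05. SE is the absolute log2 fold change over the square root of F. The script was tested on simulated data with far fewer changed genes than were called here. That run checks the code and not the choice of scaling. Lengths, positions and overlaps came from GENCODE 29 (GRCh38) by gene ID, which gave 97.6% of tested genes a length, and promoter sequences from RefSeq. Alternatives were DESeq2 1.42.0, limma-voom (limma 3.58.1), other factors and filters, a replicate block, each library left out, and lowess trends (span 0.3) on length and GC removed, which also centres each library. The trend on median transcript length was added after the data were seen. Figures used matplotlib 3.10.9.

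The members and lists were chosen with earlier results of these data known. Genes named were the members, GLUD1, up to 2 risen and 2 fallen genes of each list by lowest p, and the 3 closest in pattern to MYC and to MAX; some items that this rule names are not reported here. Other names (paralogs, overlapping genes, markers, genes of lowest p by role, MLXIP, SIN3B, ZBTB17 and the CDKN genes) were chosen with values in view.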

Additional observations from a re-analysis of the deposited data

How the results depend on the processing

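Under 15 alternatives MYC, MXD1, MXD4, MXD3 and MNT kept their direction and their calls. MAX was 0.07 with library totals alone and ran from -0.54 to -0.37 with a library left out, uncalled without shNT replicate 1. MGA was 0.54 with the length trend removed and 0.34 with the length and GC trends removed, where MXI1 was 0.30, none of them called. The replicate numbers are not stated to mark a shared culture or day, and deviations of same-numbered libraries had a correlation of 0.0527 across genes, so they were not taken as pairs: the replicate block called 9046 genes against 8919 without it, and all 8 network genes. The count of genes called was 7047 to 9592 over the alternatives. With a library left out, the lone library of its group was assumed to vary like the pair of the other.

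Of the 3 MLX arm genes 2 were called, but 1 with DESeq2, 1 with the median transcript trend removed and 1 to 2 with a library left out (1 without shNT replicate 1 or shGlud1 replicate 1), and its median was -0.35 and -0.18 with the length and the length and GC trends removed. The Polycomb list had 8 calls, 5 to 9 with a library left out (5 without shNT replicate 1), and a median of 0.25 with library totals. There the MYC-activated median was 0.19 and MLX was 0.01. The MYC-repressed median, 0.04, was -0.02 with DESeq2, with RLE factors and without shGlud1 replicate 1, ran from -0.02 to 0.27 with a library left out, and was -0.12, -0.08 and -0.12 with the length, length and GC, and median transcript trends removed. HDAC2 was -0.05 with the length trend and also with the length and GC trends removed. The log2 difference of MXD4 to MYC, -0.11, ran from -0.40 to 0.17 with a library left out. It was 0.03 without shNT replicate 2 and 0.17 without shGlud1 replicate 2. The other ratios kept their sign, which was fixed in advance. Their groups did not overlap, and a swap of longest for median transcript length cannot alter such a difference. Ratios were not computed with the length trend removed. The causes were not tested. Depth limits genes with few counts, such as MGA and MLXIPL, whose shNT counts were at most 58 and 13.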
